A study of Mus musculus with 3 samples.

Results

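The Ly49 receptors are C-type lectin-like membrane receptors encoded by the Klra genes, and 6 of these genes were followed here through thymic CD1d-tetramer-binding T cells: Klra1, Klra3, Klra5, Klra6, Klra7 and Klra9. The members were chosen by symbol among the 11 Klra genes and the 30406 gene identifiers that all 3 libraries list. They were also picked with their levels in these cells in view, so their levels by cell class and by library are given as a description, with no test. All 6 were found in every library. The member with the fewest, Klra6, had 223, 330 and 47 UMIs (unique molecular identifiers, one per captured RNA molecule) in the 3 libraries (C57BL/6, BM only and BM + Spl). Of the genes left out, Klra8 had 77, 232 and 28 UMIs, and Klra17 had 2, 202 and 602, most of them in plasmacytoid dendritic cells.

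Thymocytes depleted of CD8+ cells were gated on TCRβ and on binding of the CD1d tetramer, cells with CD24 or NK1.1 on their surface were left out, and a single droplet library was made for each of 3 conditions. The C57BL/6 library came from unmanipulated mice labelled 7 weeks old. Both other libraries came from lethally irradiated (C57BL/6 x BALB/c) F1 recipients labelled 16 weeks old, 9 weeks after bone marrow transplantation (BMT). Both BMT groups received T cell-depleted C57BL/6 bone marrow, and they differed in that the BM only group (Non-GVHD) got no other cells and the BM + Spl group (GVHD) also got C57BL/6 splenic cells, which cause graft-versus-host disease. Mice were pooled within a library, so no spread between mice can be given, and host cells that survive irradiation were not separated from donor cells. After removal of cells with too few or too many genes or a high mitochondrial share, 4434, 5970 and 5557 cells remained, with a median of 12086.5, 4740 and 6495 UMIs per cell. BM only and BM + Spl shared 43 cell barcodes and C57BL/6 shared 0 with either. The C57BL/6 library also differed from both BMT libraries in age, host, Cell Ranger version (3.0.2 against 7.0.0) and the share of cells with a V beta UMI (19.8% against 89.5% and 89.2%), and these cannot be told apart from transplantation.

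Most Ly49 receptors are inhibitory. They bind major histocompatibility complex (MHC) class I on other cells and recruit phosphatases through a motif in their cytoplasmic tail, which restrains NK cells and some T cells that carry them. A smaller number, among them Ly49D (Klra4) and Ly49H (Klra8), lack that motif and signal through the adaptor DAP12 (Tyrobp). Each cell is known to switch on its own random subset of the family, so that a population is a mosaic of receptor combinations. Among invariant natural killer T (iNKT) cells, the receptors are a known feature of the IFN-γ-producing NKT1 subset. The members encode Ly49A (Klra1), Ly49C (Klra3), Ly49E (Klra5), Ly49F (Klra6), Ly49G (Klra7) and Ly49I (Klra9).

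All 6 members lie on the minus strand of chromosome 6 within 487879 bases of GRCm38 (GENCODE M21), in the order Klra5 (chr6:129898996-129917650), Klra6 (chr6:130013033-130026954), Klra9 (chr6:130178675-130193112), Klra7 (chr6:130218605-130233322), Klra3 (chr6:130323289-130337574) and Klra1 (chr6:130363917-130386874). Their start regions were compared because the members did not share one pattern over cell classes. RefSeq promoter windows (GRCm38.p6, 250 bases before to 50 after the annotated start, 5′ to 3′ on the strand of the gene) were matched for all 6 genes. Short runs were not searched, and a part of a run can be held by more windows than the whole. Among the longer runs, one of 23 bases, in capitals, was the longest held by the largest number of member windows. It is given for Klra3 and Klra9, which were the most alike, for Klra5 and the upstream of 2 Klra7 starts, and the Klra1 window, which lacks it, is shown for contrast.
Klra3 (chr6:130337577-130337876): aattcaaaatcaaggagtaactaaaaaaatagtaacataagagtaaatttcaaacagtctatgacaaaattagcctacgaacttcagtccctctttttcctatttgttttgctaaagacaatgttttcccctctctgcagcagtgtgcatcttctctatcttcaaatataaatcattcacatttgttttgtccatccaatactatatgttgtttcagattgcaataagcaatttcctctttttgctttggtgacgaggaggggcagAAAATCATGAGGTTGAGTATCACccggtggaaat
Klra9 (chr6:130193063-130193362): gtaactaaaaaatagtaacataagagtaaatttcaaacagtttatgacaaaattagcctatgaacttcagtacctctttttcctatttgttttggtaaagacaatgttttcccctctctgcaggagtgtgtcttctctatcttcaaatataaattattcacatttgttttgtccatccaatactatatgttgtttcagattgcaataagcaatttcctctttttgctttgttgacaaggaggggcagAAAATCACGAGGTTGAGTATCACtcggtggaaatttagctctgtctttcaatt
Klra5 (chr6:129913175-129913474): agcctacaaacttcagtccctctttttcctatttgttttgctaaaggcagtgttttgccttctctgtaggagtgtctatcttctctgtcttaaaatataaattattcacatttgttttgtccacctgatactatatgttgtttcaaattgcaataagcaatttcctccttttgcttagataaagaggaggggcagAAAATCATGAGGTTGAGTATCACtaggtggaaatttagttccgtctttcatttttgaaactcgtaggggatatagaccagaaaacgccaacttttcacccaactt
Klra7, upstream start (chr6:130233273-130233572): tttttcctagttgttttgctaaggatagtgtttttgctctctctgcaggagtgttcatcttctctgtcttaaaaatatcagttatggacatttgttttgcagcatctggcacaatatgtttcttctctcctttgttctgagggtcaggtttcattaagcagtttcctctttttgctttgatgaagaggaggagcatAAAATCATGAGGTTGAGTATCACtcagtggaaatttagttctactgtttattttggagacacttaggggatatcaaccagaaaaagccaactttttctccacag
Klra1 (chr6:130386825-130387124): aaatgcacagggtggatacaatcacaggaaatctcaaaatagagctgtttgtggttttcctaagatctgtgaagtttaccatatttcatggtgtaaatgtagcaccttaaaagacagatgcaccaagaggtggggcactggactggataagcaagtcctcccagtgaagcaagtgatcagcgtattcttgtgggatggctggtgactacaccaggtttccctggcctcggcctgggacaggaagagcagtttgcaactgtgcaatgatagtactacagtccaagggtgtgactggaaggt

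The run was held exactly by the windows of Klra3, Klra5, Klra6 and the upstream start of Klra7, and by no other of the 32851 windows in the table (0.0122% with it). Klra9 differed from it by T8C, counted from 1 at the 5′ end of the run. Near matches were also held by Klra genes outside the members: both Klra8 starts differed by T5A, and Klra17 by G12A and T14A. The Klra1 window and that of the downstream Klra7 start had no match within 2 bases. Local alignment gave 95.4% identity over 284 columns between Klra3 and Klra9, 90.8% over 271 between Klra5 and Klra6, and 77.0% over 230 between Klra3 and the upstream Klra7 start. Between Klra1 and each of the other members only 13 to 34 columns aligned. Only starts annotated in RefSeq were compared, and starts elsewhere in a gene were not searched. Whether the windows bear on the pattern over cell classes was not tested. The motif TGTGGT, the Runx core, was found in the Klra1 window alone among the 7 member windows, and in 16.8% of all windows. The motif CTTTGA, 1 form of the core bound by TCF-1, was found in Klra6 and at both Klra7 starts, and in 16.0% of all windows. Only these exact letters were searched, so a window without them may hold another form of either core. The motif searches cover both strands, neither motif overlaps the other, and the matches describe these windows only.

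Because the genes are near copies, part of each transcript cannot be assigned to one gene. Of the 50-base windows of the longest protein-coding transcript (GENCODE M21), 32.4% of Klra9 and 21.5% of Klra3 also occurred in a transcript of another gene, and these genes were each other's closest match with 13.6% and 14.0% of windows. Klra7 shared 14.7% of its windows, with the pseudogene Klra13-ps as its closest match. Klra1, Klra6 and Klra5 shared 3.15%, 2.62% and 0.732%. In the last 300 bases the shared part was 40.6% for both Klra3 and Klra9, 20.3% for Klra7 and 0% for Klra1, Klra5 and Klra6. In the first 300 bases it was 7.97% for Klra3, 4.78% for Klra9, 1.2% for Klra6, 0.797% for Klra5 and 0% for Klra1 and Klra7. Which end was read in which library is not given. Reads that match several genes are lost or misassigned in counting, so the levels of Klra3, Klra9 and Klra7 are less certain than those of the other 3.

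Cells were placed in classes, called gates, by UMIs of marker genes that include no Klra gene. Most gates needed at least 3 UMIs from at least 2 of their markers. The NKT1 and NKT2 gates needed at least 3 UMIs, which could all come from 1 marker. They also needed at least 2 times as many UMIs as the opposite list. The NKT1 gate (Tbx21, Cxcr3, Il2rb, Nkg7, Ccl5 and Ms4a4b) held 1022, 2410 and 1065 cells in C57BL/6, BM only and BM + Spl, and the NKT2 gate (Zbtb16, Il17rb, Il4, Pdcd1 and Id3) held 1035, 623 and 881. The intermediate gate (Zfp683, Samd3 and Arl4d) held 220, 205 and 49 cells. Levels are in CPM, the UMIs of a gene per 1000000 UMIs of the gate, with exact Poisson 95% intervals. They need no correction for gene length, since each molecule is counted once. Shares of cells with a UMI carry Clopper-Pearson 95% intervals. All intervals cover counting error only, and with 1 library per condition no p-value was computed. Intervals of levels and ratios take UMIs as independent, so they are too narrow where many UMIs of a gene came from the same cell.

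The summed level of the 6 members in the NKT1 gate was 617 CPM (599–635) in C57BL/6, 911 CPM (893–929.5) in BM only and 96.8 CPM (88.7–105) in BM + Spl mice. In the NKT2 gate it was 78.2 CPM (73.8–82.8), 100.6 CPM (92.2–109.5) and 93.3 CPM (86.9–100.01). The sum thus stood well above its NKT2 level in NKT1-gate cells of C57BL/6 and BM only mice, and near that level in the whole NKT1 gate of BM + Spl mice. The log2 ratio of NKT1 over NKT2 was 2.98 (2.89–3.07), 3.18 (3.05–3.31) and 0.05 (−0.11 to 0.21). Among BM + Spl cells with an iNKT V beta, which made up 40.3% of the assigned cells of that gate, it was 1.07 (0.90–1.24). A share of 49.9% (46.8–53.0%) of NKT1-gate cells had a UMI of a member in C57BL/6, against 65.9% (63.9–67.7%) in BM only and 7.89% (6.34–9.67%) in BM + Spl mice. With each cell thinned to 2700 UMIs and gates kept from full depth, these shares were 42.7%, 63.9% and 7.26%. For this 2, 402 and 129 shallower NKT1-gate cells were left out. In cells outside the T lineage, plasmacytoid dendritic cells had a member UMI in 3.37% and 1.496% of cells in BM only and BM + Spl, at median depths of 6079.5 and 7172 UMIs against 4238.5 and 4366 in the NKT1 gate.

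Past 1.5-fold and among genes with at least 50 UMIs, 6 of 6 members were higher in NKT1 than in NKT2 cells of C57BL/6 mice, where 13.3% of all genes were higher, and 6 of 6 in BM only mice, where 17.9% were. In BM + Spl mice 3 members had enough UMIs and 1 of them was higher, beside 19.7% of all genes. The median log2 ratio of the members was 4.95 in C57BL/6 and 4.96 in BM only, against −0.00 and −0.02 over all genes, and −0.25 in BM + Spl against 0.06. The gates were part of how the members were chosen, and nothing further is read from these counts.

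**Figure D1:**
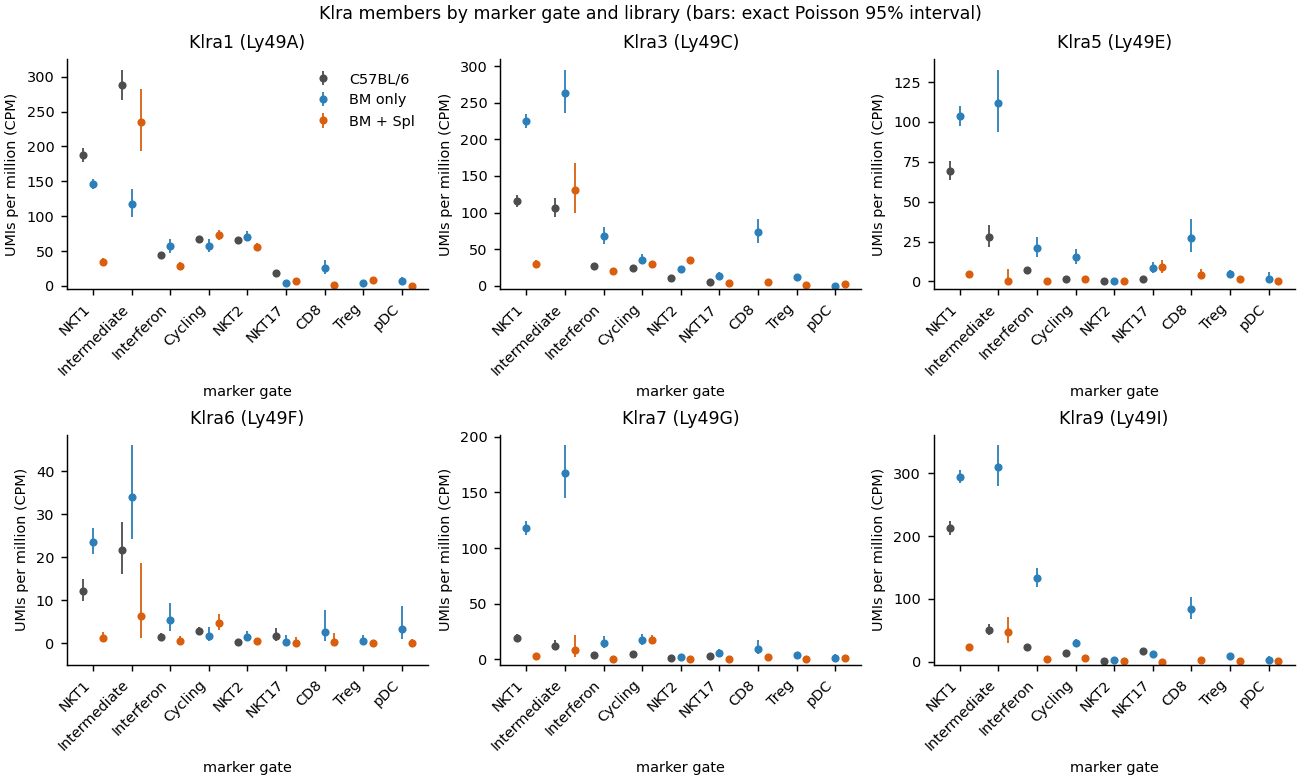
Level of each member (CPM, vertical axis, a scale for each panel) in 9 marker gates (horizontal axis) of the 3 libraries; points are the level of all cells of a gate, bars the exact Poisson 95% interval, and gates under 40 cells are not drawn. Klra5, Klra6, Klra7 and Klra9 are near 0 in NKT2 cells of each library, Klra1 and Klra3 are not, and BM + Spl lies below the other libraries in the NKT1 gate of every member.

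By their spread over the gates the members fell into 2 groups, a grouping made after the values were seen. Klra1 (Ly49A) and Klra3 (Ly49C) were read in NKT2 and cycling cells as well as in NKT1 and intermediate cells, at unequal levels. Klra1 had a UMI in 14.7%, 18.0% and 3.005% of NKT1-gate cells of C57BL/6, BM only and BM + Spl, and in 18.0%, 13.3% and 12.6% of NKT2-gate cells. The NKT2-gate cells were deeper, with medians of 14343, 8140 and 9327 UMIs against 6607, 4238.5 and 4366. Thinned to 2700 UMIs, Klra1 was read in 12.5%, 16.2% and 2.88% of NKT1-gate cells and in 9.58%, 9.17% and 7.75% of NKT2-gate cells. Its level in the NKT1 gate was 188, 146 and 34.6 CPM, and in the NKT2 gate 65.3, 70.8 and 55.8 CPM. The ratio of NKT1 over NKT2 for Klra1 was 1.53 (1.41–1.64), 1.05 (0.88–1.22) and −0.69 (−0.94 to −0.44) on the log2 scale. Klra1 was therefore lower in NKT1 than in NKT2 cells of BM + Spl mice, the opposite order from the other libraries. Among BM + Spl cells with an iNKT V beta segment the ratio was 0.30 (0.04–0.56).

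Klra3 had 116, 225 and 29.7 CPM in the NKT1 gate and 10.9, 22.8 and 35.3 CPM in the NKT2 gate. Its log2 ratio was 3.40 (3.16–3.65) in C57BL/6 and 3.30 (3.04–3.58) in BM only, and −0.25 (−0.53 to 0.03) in BM + Spl mice. In the NKT2 gate 8.70%, 9.47% and 14.4% of cells had a Klra3 UMI, and 2.90%, 5.64% and 6.22% when thinned to 2700 UMIs. NKT2-gate cells with Klra1 held 5.33, 4.49 and 4.31 UMIs of it on average, and those with Klra3 held 1.84, 2.03 and 2.38.

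Klra5, Klra6, Klra7 and Klra9 were close to absent from NKT2 cells, with a UMI in 0% to 1.44% of them in the 3 libraries. The share of plasmacytoid dendritic cells with a UMI of one of these genes was 0% to 1.12% in both BMT libraries, near the NKT2 values. C57BL/6 held 2 such cells, which gives no reference there. Background and rare expression in NKT2 cells cannot be told apart on these counts. Klra9 (Ly49I) was the most abundant member in NKT1-gate cells of C57BL/6 and BM only mice, at 213 CPM (202–223) and 295 CPM (284–305), with 25.9% and 40.5% of cells holding a UMI. In BM + Spl mice it stood at 23.6 CPM (19.7–28.1) in 2.72% of cells. Its log2 ratio of NKT1 over NKT2 was 8.07 (7.27–9.03), 6.51 (5.83–7.29) and 4.66 (3.64–5.90).

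Klra5 (Ly49E), known as the Ly49 receptor of fetal NK cells, was read at 69.3, 104 and 4.40 CPM in the NKT1 gate. The NKT2 gate held 1, 2 and 0 Klra5 UMIs. In BM + Spl mice the level in NKT1 cells was 12.6-fold higher than in NKT2 cells, with 0 UMIs counted as a floor of 3 for the gate. The lower limit of the log2 ratio was 3.24. Klra7 (Ly49G) had 19.0, 118 and 3.12 CPM and Klra6 (Ly49F) 12.2, 23.6 and 1.28 CPM in the NKT1 gate. Klra7 thus ranked well below Klra5 in C57BL/6 mice and slightly above it in BM only mice.

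In NKT1-gate cells of C57BL/6 mice the order of levels was Klra9, Klra1, Klra3, Klra5, Klra7 and Klra6, with no overlap of neighbouring intervals. The 1412 Klra1 UMIs there came from 150 cells, and the intervals leave out such clustering. Neighbours are therefore not shown to differ, here or in the other libraries. In BM only mice it was Klra9, Klra3, Klra1, Klra7, Klra5 and Klra6, again with no overlap, although the intervals of Klra7 (111–125 CPM) and Klra5 (97.6–110.0 CPM) nearly touched. In BM + Spl mice Klra1 (29.9–39.96 CPM), Klra3 (25.3–34.6 CPM) and Klra9 (19.7–28.1 CPM) came first, and only the intervals of Klra1 and Klra9 were apart there. Klra5, Klra7 and Klra6 followed well below, with intervals of neighbours that overlapped.

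The intermediate gate, set by Zfp683 (Hobit, a transcription factor of resident lymphocytes) and 2 other genes, had member levels near those of the NKT1 gate in BM only mice and other ones in C57BL/6 mice. Its makeup moved with this: the summed NKT1 markers were at 4722 CPM in BM only mice, near the 4829 CPM of the NKT1 gate there, against 1484 CPM in C57BL/6 and 1598 CPM in BM + Spl mice, and the NKT2 markers at 239, 702 and 708 CPM. The part of this in the members' levels was not tested. In BM only mice 0 of 6 members differed past 1.5-fold between NKT1 and intermediate cells, beside 7.52% of all genes higher and 3.23% lower in NKT1 cells, and the summed level was 911 against 1005 CPM. In C57BL/6 mice 3 of 6 members were higher in NKT1 cells, beside 7.92% of all genes, and 2 were lower, beside 4.09%. Klra7, one of the higher ones at 0.62 (0.05–1.23), turned to −0.31 with 5 marker UMIs and to −0.40 with an iNKT V beta. Klra9 stood at 50.9 CPM (42.4–60.5) in intermediate cells there, 4.18-fold below the NKT1 level, and Klra5 at 28.0 CPM (21.9–35.4). Klra1 had its highest level of any gate in intermediate cells of C57BL/6 mice, at 288 CPM (267–310), a log2 ratio of −0.62 (−0.75 to −0.49) for NKT1 over intermediate cells. Among the 36 intermediate cells and 100 NKT1 cells of C57BL/6 in which an iNKT V beta was read, this ratio was 0.67 (0.29–1.07). Most C57BL/6 cells had no V beta UMI.

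The effect of added splenic cells was examined by setting BM + Spl against BM only mice gate by gate. All 6 members were past 1.5-fold lower in the NKT1 gate of BM + Spl mice, where 9.68% of all genes were lower. The summed log2 ratio was −3.23 (−3.36 to −3.11). Klra7 had the largest difference, at −5.24 (−6.03 to −4.56), with 1247 UMIs in BM only and 17 in BM + Spl mice. It was followed by Klra5 at −4.56 (−5.21 to −3.98), Klra6 at −4.20 (−5.53 to −3.14), Klra9 at −3.64 (−3.90 to −3.38) and Klra3 at −2.92 (−3.16 to −2.69). Klra1 had the smallest, at −2.08 (−2.30 to −1.86). The median of the members was −3.92, beside 0.05 over all genes. With 1 pool of mice per condition, these differences cannot be set against the variation between mice.

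The T cell receptor makeup of the NKT1 gate moved with this difference. iNKT cells use a restricted set of V beta segments, here Trbv1, Trbv12-2, Trbv13-1, Trbv13-2, Trbv13-3 and Trbv29. Of the NKT1-gate cells that could be assigned, 1923 had an iNKT V beta and 234 another one in BM only mice (89.2% iNKT), and 395 and 584 in BM + Spl mice (40.3%). An iNKT V beta was also assigned to 29.8% and 28.0% of such cells in the regulatory T cell gate of BM only and BM + Spl mice. In the CD8 gate it was 45.7% and 39.0%. The class is thus not specific to iNKT cells, and the part of other T cells in it was not tested. Members were lower in the cells with another V beta of both libraries. In BM only mice a member UMI was read in 70.9% (68.8–72.9%) of NKT1 cells with an iNKT V beta and 28.6% (22.9–34.9%) of those with another one. In BM + Spl mice these shares were 18.0% (14.3–22.1%) and 0.685% (0.187–1.74%). The summed level was 972 and 368 CPM in BM only mice and 212 and 6.83 CPM in BM + Spl mice.

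Restricted to cells with an iNKT V beta, the members were still lower in BM + Spl mice, by less. Past 1.5-fold 6 of 6 were lower, beside 12.2% of all genes, with a median log2 ratio of −2.83 against 0.02 over all genes. The summed ratio was −2.20 (−2.33 to −2.06). Klra1 was at 160.0 CPM in BM only and 76.0 CPM in BM + Spl mice (log2 ratio −1.07, −1.31 to −0.84), and Klra3 at 233 and 66.6 CPM (−1.81, −2.06 to −1.57). Klra9 went from 316 to 49.0 CPM (−2.69, −2.98 to −2.41) and Klra6 from 24.8 to 3.15 CPM (−2.98, −4.31 to −1.91). Klra5 went from 110.0 to 9.44 CPM (−3.54, −4.24 to −2.92) and Klra7 from 127 to 7.65 CPM (−4.06, −4.84 to −3.37). The 4 members that were close to absent from NKT2 cells differed more than Klra1 and Klra3, a grouping made after the values were seen. The intervals of Klra1 and Klra3 did not overlap those of Klra5, Klra7 and Klra9. These intervals leave out the clustering of UMIs in cells, and BM + Spl held 21 Klra5 and 17 Klra7 UMIs here. The groups are therefore not shown to differ.

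The share of cells with a UMI was lower for every member, while the number of UMIs in such a cell differed less and not in one direction. A Klra9 UMI was read in 44.0% (41.8–46.2%) of NKT1 cells with an iNKT V beta in BM only mice and in 6.08% (3.93–8.91%) in BM + Spl mice, at median depths of 4337 and 4723 UMIs. Thinned to 2700 UMIs per cell, the shares were 39.3% and 6.21%. Cells with Klra9 held 3.24 UMIs of it on average in BM only and 4.54 in BM + Spl mice. For Klra1 the shares were 19.6% and 7.09% with 3.69 and 6.04 UMIs per such cell. For Klra3 they were 27.5% and 9.11% with 3.83 and 4.11 UMIs, an order that turned in thinned cells, with 2.72 and 2.11. For Klra5 they were 17.1% and 1.77% with 2.91 and 3 UMIs. Klra7 was read in 17.6% and 2.03% of cells with 3.25 and 2.12 UMIs each (2.42 and 3 in thinned cells), and Klra6 in 7.49% and 1.77% with 1.49 and 1 UMI each, on 8 and 7 cells in BM + Spl mice.

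**Figure D2:**
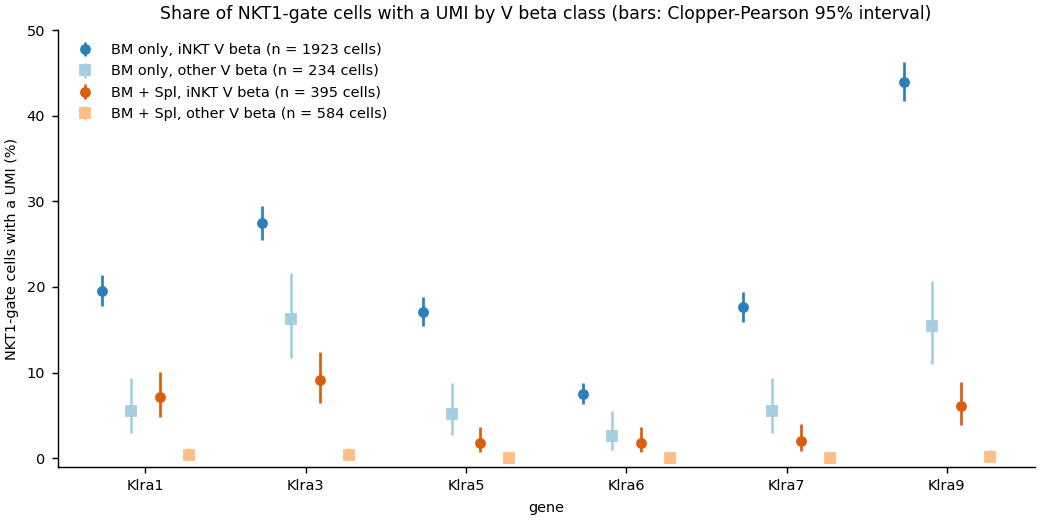
Share of NKT1-gate cells with a UMI of each member (percent, vertical axis) in BM only (blue) and BM + Spl mice (orange); circles are cells with an iNKT V beta, squares cells with another V beta, bars the Clopper-Pearson 95% interval. For each member the cells of BM only mice with an iNKT V beta lie highest, with Klra9 at 44.0%. The cells of BM + Spl mice with another V beta lie at or below 0.342%.

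In the NKT2 gate, where 95.9% and 94.8% of assigned cells had an iNKT V beta, the sum did not show such a difference. It was 100.6 CPM in BM only and 93.3 CPM in BM + Spl mice (log2 ratio −0.11, −0.27 to 0.05). Of the 2 members with at least 50 UMIs, 1 was higher past 1.5-fold, beside 1.43% of all genes, and 0 were lower, beside 3.24%. The higher one was Klra3 at 0.63 (0.32–0.95). That direction turned when cells were thinned to 2700 UMIs before gating (−0.21) and in gates set by Tbx21 and Zbtb16 alone (−0.70). With gates kept from full depth, it held in thinned cells, at 28.2 CPM in BM only and 32.3 CPM in BM + Spl mice. Klra1 was at −0.34 (−0.54 to −0.14). These 2 members make up most of the sum. The others were lower on few UMIs, with Klra9 at −1.79 (−3.21 to −0.50), Klra7 at −1.44 (−3.18 to 0.16), Klra6 at −1.38 (−3.34 to 0.41) and Klra5 at 2 UMIs against 0.

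The intermediate gate held 49 cells in BM + Spl mice, with the lower NKT1 and higher NKT2 marker levels given above. There 4 of 5 members tested were lower, beside 15.8% of all genes, and 1 was higher, beside 9.21%. Klra1 was the higher one, at 117 CPM in BM only and 235 CPM in BM + Spl mice (log2 ratio 1.003, 0.63–1.38). Klra3 was lower at −1.02 (−1.44 to −0.62), Klra9 at −2.73 (−3.42 to −2.11) and Klra7 at −4.29 (−6.18 to −2.91). Klra5 had 132 UMIs in BM only and 0 in BM + Spl mice, 17.5-fold lower with 0 counted as a floor of 3 UMIs. The upper limit of its log2 ratio was −3.81. In cycling cells Klra5 was lower, at −3.45 (−4.75 to −2.35) on 45 UMIs in BM only and 8 in BM + Spl mice. Klra9 was lower too, at −2.26 (−2.86 to −1.69). Klra1 at 0.35 (0.09–0.61), Klra3 at −0.27 (−0.63 to 0.09) and Klra7 at 0.03 (−0.47 to 0.54) were under the fold. Klra6 had too few UMIs there, and the share of all genes that were lower is not given. A Klra1 UMI was read in 8.78% and 8.24% of thinned cycling cells. In BM + Spl mice 68.7% of all Klra7 UMIs came from 11 cycling cells, 26 of them from 1 cell, against 3.26% in BM only mice. The Klra7 level of cycling cells was 17.4 CPM in BM only and 17.7 CPM in BM + Spl mice.

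**Figure D3:**
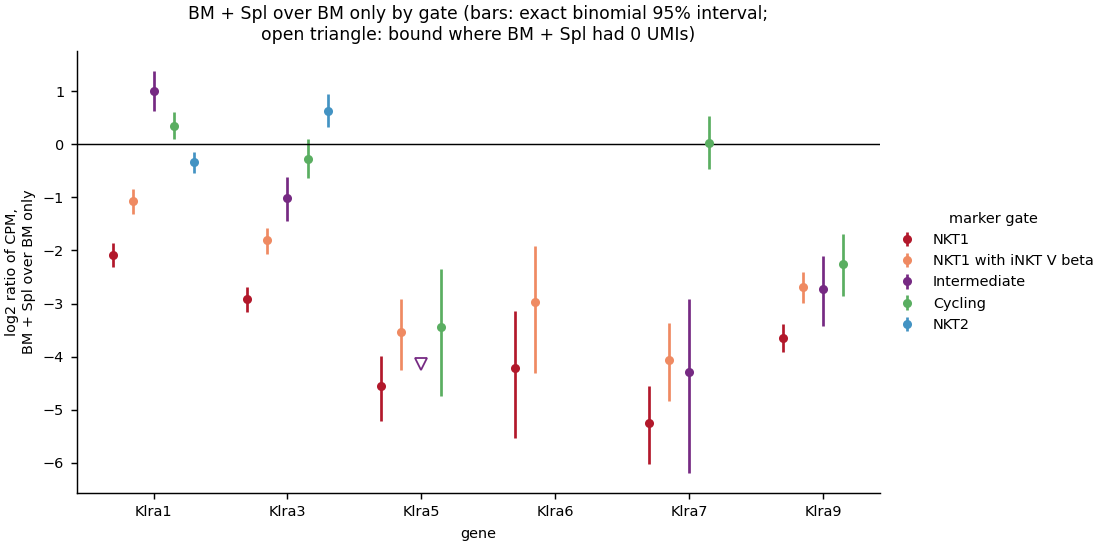
Log2 ratio of CPM of BM + Spl over BM only mice (vertical axis) for each member in 5 cell sets; bars are exact binomial 95% intervals, pairs under 50 UMIs are not drawn, and the open triangle is the bound for Klra5 in intermediate cells, where BM + Spl had 0 UMIs. All members lie below 0 in both NKT1 sets, and Klra1 lies above 0 in intermediate cells, at 1.003.

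Transplanted and untransplanted mice were compared through the BM only and C57BL/6 libraries, which differ in all the ways named above. In the NKT1 gate 3 of 6 members were higher past 1.5-fold in BM only mice, where 27.2% of all genes were higher, so the count of members is read against a high background. Klra7 differed most, from 19.0 CPM (16.0–22.4) to 118 CPM (111–125), a log2 ratio of 2.63 (2.38–2.89). Klra3 and Klra6 were also higher, at 0.96 (0.85–1.07) and 0.95 (0.60–1.31). Klra5 at 0.58 (0.43–0.73) and Klra9 at 0.47 (0.38–0.56) were under the fold, and Klra1 was at −0.36 (−0.46 to −0.25). In the intermediate gate Klra7 had a ratio of 3.75 (3.20–4.35), Klra9 2.61 (2.31–2.91) and Klra1 −1.30 (−1.57 to −1.03). The BM + Spl level of Klra7 in NKT1 cells, 3.12 CPM, was below that of C57BL/6 mice as well. So were those of the other 5 members, with log2 ratios from −1.96 to −3.98. The median of the members was −2.89, beside 0.18 over all genes, and the share of all genes that were lower is not given. An iNKT V beta was read in 40.3% of assigned NKT1-gate cells of BM + Spl mice and 90.9% of those of C57BL/6 mice. The part of this was not tested. For Klra7 the order of BM + Spl and C57BL/6 mice turned among cells with an iNKT V beta. It had 7.65 CPM (4.45–12.2) in BM + Spl mice and 5.71 CPM (1.85–13.3) in the 100 such C57BL/6 cells. These rest on 17 and 5 UMIs. These contrasts share libraries with those above.

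Single cells carried few members each. In NKT1-gate cells of C57BL/6 mice thinned to 2700 UMIs, 57.3% had a UMI of no member, 27.8% of 1, 10.8% of 2 and 4.12% of 3 or more. In BM only cells with an iNKT V beta these shares were 32.1%, 35.4%, 19.7% and 12.7%, and in BM + Spl cells with an iNKT V beta 83.9%, 11.0%, 2.82% and 2.26%. As deposited, a cell with all 6 members was seen in C57BL/6 and in BM only mice, and the most in a BM + Spl cell was 4.

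**Figure D4:**
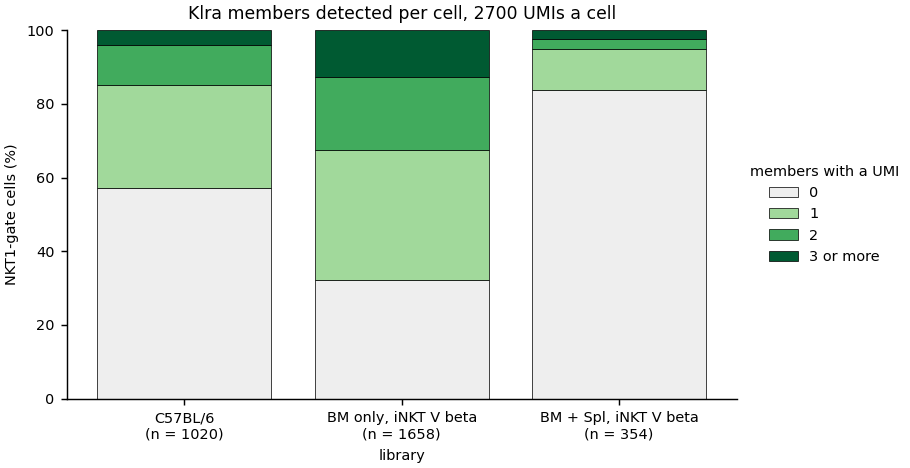
NKT1-gate cells (percent, vertical axis) by the number of members with a UMI in each cell thinned to 2700 UMIs; bars are all NKT1-gate cells of C57BL/6 and those with an iNKT V beta of both BMT libraries. Cells without a member make up 57.3%, 32.1% and 83.9%.

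Within a cell the UMIs were concentrated on one gene. Among the 327 C57BL/6 NKT1-gate cells with at least 5 member UMIs, a median of 83.3% of these came from the leading member, and 38.5% of the cells had a single member. The leading member was Klra9 in 130 of them, Klra1 in 94, Klra3 in 57, Klra5 in 42 and Klra6 and Klra7 in 2 each. Among the 826 such cells of BM only mice the median was 62.5%, with Klra9 leading in 244, Klra3 in 222, Klra1 in 163, Klra7 in 111, Klra5 in 85 and Klra6 in 1. The 37 cells of BM + Spl mice were led by Klra1 in 16, Klra9 in 11, Klra3 in 9 and Klra7 in 1. In NKT2-gate cells Klra1 led in 80 of 87, 32 of 38 and 50 of 63 such cells.

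Co-detection was set against the product of the shares of each pair, in cells of 2700 UMIs. In BM only cells with an iNKT V beta, Klra6 and Klra7 were read together in 36 of 1658 cells, 2.58 times the product. Klra1 with Klra7 came to 1.998 times and Klra1 with Klra6 to 1.92 times. Klra3 and Klra9, the pair with the most shared transcript sequence, were read together in 157 cells, 0.987 times the product, and Klra3 with Klra1 in 74 cells, 1.04 times. In C57BL/6 cells Klra6 and Klra7 had the highest value too, 9.05 times, on 6 cells. Klra5 was read in 12.7% of BM only cells without Klra1 and 22.3% of those with it. In C57BL/6 cells these shares were 9.98% (8.09–12.1%) and 6.25% (2.74–11.9%), on 8 cells with both, while at full depth they were 12.0% and 16.0%, on 24 cells with both. Cells of one library share its depth and background, and these values are a description.

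**Figure D5:**
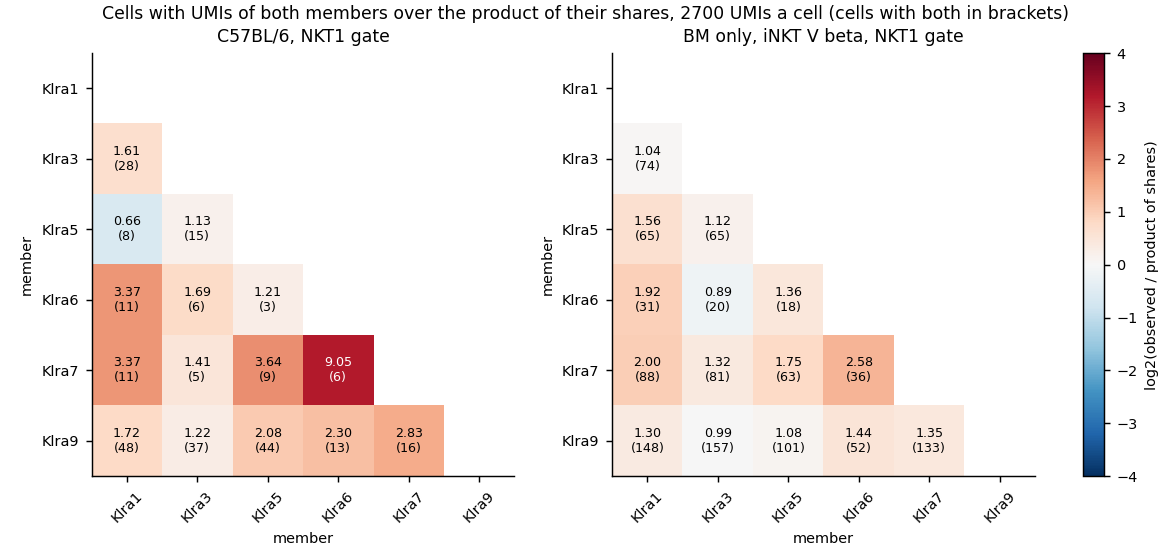
Number of NKT1-gate cells with UMIs of both members divided by the product of their shares, for each pair, in C57BL/6 cells (left) and BM only cells with an iNKT V beta (right), thinned to 2700 UMIs; colour is the log2 of that quotient and the number of cells with both is in brackets. Klra6 with Klra7 has the highest value in both, 9.05 and 2.58, and Klra3 with Klra9 lies near 1 at right.

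Klrb1c encodes NK1.1, the antigen by which cells were removed in the sort. Its UMIs remained in 625 of 1022, 837 of 2410 and 58 of 1065 NKT1-gate cells of C57BL/6, BM only and BM + Spl mice. In BM only mice 78.7% (75.8–81.5%) of cells with a Klrb1c UMI had a member UMI, against 59.0% (56.5–61.4%) of cells without one. In C57BL/6 mice these shares were 55.5% (51.5–59.5%) and 41.1% (36.2–46.1%), and in BM + Spl mice 44.8% (31.7–58.5%) of 58 cells and 5.76% (4.40–7.38%) of 1007 cells. Klra9 followed this in each library, with 51.7% against 34.5% in BM only mice. In C57BL/6 mice Klra1 did not, with 14.4% against 15.1%, nor did Klra3, with 18.2% against 20.9%. In BM + Spl mice Klra5 did not, with 0% against 0.794%. Among BM + Spl cells with an iNKT V beta and no Klrb1c UMI, 13.4% of 352 had a member UMI, against 65.6% of 1197 in BM only mice. Their median depths were 4611 and 4199 UMIs. A cell without a Klrb1c UMI can still hold its RNA, so these cells are not matched for it. The part of Klrb1c and of V beta makeup in the difference was not tested.

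NK cells express Ly49 receptors, and their markers were read beside the members. The summed level of Ncr1, Eomes, Tyrobp and Fcer1g in the NKT1 gate was 125, 320.2 and 126 CPM in C57BL/6, BM only and BM + Spl mice, with 1, 0 and 0 of the 4 genes at 0. Ncr1 and Eomes, the defining ones, were at 0 and 0.133 CPM in C57BL/6, at 18.5 and 3.02 CPM in BM only and at 5.68 and 3.12 CPM in BM + Spl mice. Of the cells with a member UMI 100%, 99.8% and 98.8% also had a UMI of Cd3d, Cd3e or Cd3g, and 0%, 3.72% and 1.19% had one of Ncr1. In NKT1-gate cells without a member UMI these shares were 100%, 98.2% and 98.9%, and 0%, 1.34% and 0.917%. The CD3 shares thus do not set the cells with a member apart.

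Of 23 genes that surround Ly49 function, 22 had enough UMIs in NKT1 cells with an iNKT V beta, and 12 were lower, 2 higher and 8 between in BM + Spl against BM only mice, beside 12.2% of all genes lower and 9.57% higher. Tbx21 and Il2rb, which help to define the gate, are among the 12. The ligand genes H2-K1 and H2-D1 and their partner B2m did not differ past the fold within these cells. H2-K1 was at 2364 CPM in BM only and 2238 CPM in BM + Spl mice, H2-D1 at 1829 and 1709 CPM. Ligands on the other cells that the receptors bind were not measured. Of the phosphatases that inhibitory Ly49 receptors recruit, Ptpn6 (SHP-1) was lower, from 434 to 269 CPM (log2 ratio −0.69, −0.82 to −0.57), Ptpn11 (SHP-2) was higher, from 31.8 to 68.8 CPM (1.12, 0.82–1.41), and Inpp5d (SHIP-1) was at −0.23 (−0.49 to 0.02). Tyrobp, the adaptor of activating Ly49 receptors, had 254 UMIs in BM only and 3 in BM + Spl mice (−4.44, −6.73 to −2.88). In the whole NKT1 gate Tyrobp did not differ past the fold, with 510 and 237 UMIs (−0.15, −0.38 to 0.08). Hcst (DAP10) was at −0.64 (−0.72 to −0.55) in cells with an iNKT V beta.

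Among transcription factors, Tcf7 (TCF-1) was higher, from 151 to 272 CPM (0.85, 0.71–0.99), and Runx3 was lower, from 143 to 60.7 CPM (−1.24, −1.50 to −0.98). Tbx21, a marker of the gate, was at −1.05 (−1.31 to −0.80), and Ets1, Cbfb, Nfil3 and Prdm1 lay between. The IL-15 receptor chains Il2rb, also a marker of the gate, and Il15ra were at −0.82 (−0.94 to −0.71) and −0.64 (−1.50 to 0.13). All 5 other NK receptor genes were lower: Klrb1c at −2.01 (−2.38 to −1.66), Klre1 at −2.62 (−3.20 to −2.10), Klrk1 (NKG2D) at −1.44 (−1.67 to −1.22), Klrd1 (CD94) at −0.995 (−1.12 to −0.87) and Ncr1, with 153 UMIs against 1, at −5.30 (−10.61 to −2.80). The NKT1 marker list thus sat lower in BM + Spl cells of this gate, at a summed 2541 CPM against 4829 CPM over all NKT1-gate cells, and the part of this in the members' difference was not tested. Between NKT1 and NKT2 cells, 12 of 18 genes tested were higher and 1 lower in C57BL/6 mice, beside 13.3% of all genes in each direction. In BM only mice 16 of 22 were higher and 1 lower, beside 17.9% and 14.4%. Tbx21 and Il2rb are among the higher ones in both, which the gating fixed. The lower one was Tcf7 in both, at −1.30 (−1.42 to −1.18) and −1.03 (−1.13 to −0.94).

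Over the 28 gate-by-library groups of at least 50 cells, the levels of members on the log2(CPM + 1) scale went together to different degrees. Klra7 and Klra9 were the most alike (Pearson r = 0.893), and Klra1 and Klra5 the least (0.408). Klra3 was about as close to Klra7 (0.799) and Klra9 (0.787) as to Klra1 (0.803), and less so to Klra6 (0.734) and Klra5 (0.662). Among 11225 genes with at least 200 UMIs, outside the family and the marker lists, Klra5 was closest to Styk1, which encodes a receptor-like kinase (r = 0.945), Itga1, which encodes CD49a (0.924), and Kcnj8, a potassium channel gene (0.917). Klra9 was closest to Sidt1 (0.905), Klrc2, which encodes NKG2C (0.888), and Kcnj8 (0.877), and Klra7 to Rcbtb2 (0.849), Sidt1 (0.840) and Kcnj8 (0.819). Klra6 was closest to Arsb (0.8999), Rcbtb2 (0.790) and Sidt1 (0.787). Klra3 was closest to Gm2682 (0.876), Sidt1 (0.862) and Nmnat2 (0.850), and Klra1 to Vipr1, a receptor for vasoactive intestinal peptide (0.894), 1700025G04Rik (0.880) and Commd8 (0.869). For the sum of members Gm2682 (0.876), Sidt1 (0.870) and 1700025G04Rik (0.864) were closest. The groups come from 3 libraries and share their depth and background, so these values rank genes and carry no test.

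The other 5 Klra genes of the tables were read at low levels in T cells. The activating receptor genes Klra8 and Klra4 had 6.38, 18.2 and 2.20 CPM and 0.266, 0.851 and 1.65 CPM in the NKT1 gate of C57BL/6, BM only and BM + Spl mice. All 9 Klra4 UMIs of BM + Spl mice came from 1 cell. Klra10 had 4.26, 6.99 and 0.733 CPM there. Klra8 and Klra10 were both highest in BM only and lowest in BM + Spl mice. The share of all genes with this order was not counted, so it is not read as a trait of the family. Klra2 (Ly49B) had 0, 13 and 5 UMIs over all cells.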

How the data were processed

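Each library pooled thymocytes of several mice, and the authors deposited raw UMI counts per gene and cell barcode, made with Cell Ranger. The file headers name version 3.0.2 for C57BL/6 (31053 genes) and 7.0.0 for both BMT libraries (32285 genes), and the submitters' processing notes also name Seurat 4.0.2. The authors' genome build was mm10. Droplet kits for both transcript ends are named for the study, which library used which is not given in the sources used here, and whether intronic reads were counted is not given either.

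From the deposited counts, cells with more than 200 and fewer than 6000 genes and under 10% mitochondrial UMIs were kept. Cells were gated in a fixed order: B cells, plasmacytoid dendritic cells, macrophages, regulatory T cells (1 Foxp3 UMI), CD8 (2 UMIs of Cd8a and Cd8b1), cycling (5 UMIs of 3 genes), NKT17, intermediate, interferon response, NKT1 and NKT2, the others being left as mixed. A V beta class needed 80% of the V beta UMIs of a cell. Doublets were not called; as an alternative the 6% of cells with the most UMIs were left out. Genes past 1.5-fold were counted among those with at least 50 UMIs over both sides. Counts of 0 were set to a floor of 3 UMIs for a bound, which leaves out the counting error of the other side. Intervals are 95% and cover counting error only. Named genes were the 6 members, the other Klra genes, the list of 23 genes around Ly49 receptors and the 3 genes with the highest Pearson r for each member. The members, the lists and the gates were chosen with earlier results of these data known. Python 3.11.15, numpy 2.4.6, scipy 1.17.1, pandas 2.3.3 and matplotlib 3.10.9 were used, and the intervals and thinning were tested on simulated data. The alternatives were no filter on cells, thinning before gating, stricter gates, gates by Tbx21 and Zbtb16 alone, means over cells, cells with an iNKT V beta only and, added after the data were seen, totals without mitochondrial and ribosomal protein genes.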

Additional observations from a re-analysis of the deposited data

Results flagged for a closer look

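Klra17 (Ly49Q, a receptor known from plasmacytoid dendritic cells) lies outside the comparisons above and was read in the plasmacytoid dendritic cells that came through the sort. Its level there was 149 CPM (128–173) in BM only mice, with a UMI in 51.1% of 178 cells, and 167 CPM (153–181) in BM + Spl mice, with a UMI in 60.8% of 401 cells. It was singled out because these levels stand above what a count of 0 allows, and the C57BL/6 library held 2 cells of this gate. The members summed to 16.1 CPM and 5.85 CPM in the same BM only and BM + Spl cells.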

How the results depend on the processing

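Of 402 values under alternatives, 307 stayed within the interval of the value reported, 89 moved beyond it and 6 reversed. Thinning moved 17 of 35 values and reversed 1, and gates by Tbx21 and Zbtb16 alone moved 20 of 36 and reversed 1. With an iNKT V beta only, 25 of 47 moved and 3 reversed, and with 5 marker UMIs 13 of 56 moved and 1 reversed. Thinned cells in this section were gated after thinning, whereas those elsewhere kept their full-depth gates unless stated. No filter on cells and leaving out the 6% of cells with the most UMIs moved 0 of 57 values each. The log2 ratio of the summed members for NKT1 over NKT2 in C57BL/6 mice was 2.70 in thinned cells, 2.41 in gates by Tbx21 and Zbtb16 alone, 3.10 as a mean over cells and 3.12 in cells with an iNKT V beta. In BM only mice it was 2.26 in gates by Tbx21 and Zbtb16, and in BM + Spl mice 0.44 in thinned cells and 1.07 in cells with an iNKT V beta. For BM + Spl over BM only in the NKT1 gate it was −2.97 in thinned cells, −3.07 with 5 marker UMIs, −3.48 in gates by Tbx21 and Zbtb16, −3.43 as a mean over cells and −2.20 with an iNKT V beta. For BM only over C57BL/6 it was 0.65 in gates by Tbx21 and Zbtb16, 0.74 with an iNKT V beta and 0.28 with totals without mitochondrial and ribosomal protein genes, an alternative chosen after seeing the data. Reversed were Klra3 in the NKT2 gate of BM + Spl over BM only (−0.21 thinned, −0.70 in gates by Tbx21 and Zbtb16), Klra7 for NKT1 over intermediate cells of C57BL/6 (−0.31 with 5 marker UMIs and −0.40 with an iNKT V beta), and, with an iNKT V beta, Klra1 for NKT1 over NKT2 in BM + Spl (0.30) and over intermediate cells in C57BL/6 (0.67). The cause was not tested. No paired analysis was possible because each condition had 1 library. Depth limits the shares of cells with a UMI, with a median of 4238.5 and 4366 UMIs in the NKT1 gate of BM only and BM + Spl mice against 6607 in C57BL/6.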

Other observations

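Gates outside the NKT1 and NKT2 comparison also held members. In the CD8 gate, which remained after the depletion of CD8+ cells, the summed level was 223 CPM (196–252) in 227 BM only cells and 16.1 CPM (11.3–22.2) in 390 BM + Spl cells, with a member UMI in 20.7% and 3.08% of cells. NK cell markers moved with this, with Ncr1, Eomes, Tyrobp and Fcer1g summing to 806 CPM in BM only and 253 CPM in BM + Spl cells of the gate. Most of this was Tyrobp (511 and 136 CPM) and Fcer1g (283 and 107 CPM), while Ncr1 was at 0.885 and 0 CPM, and the plasmacytoid dendritic cell list was at 59.3 and 22.3 CPM. Their part in the difference was not tested. Klra9 (84.1 CPM) and Klra3 (73.5 CPM) led in BM only mice. Of the BM only CD8-gate cells with an iNKT V beta 32 of 85 had a member UMI, against 5 of 101 with another V beta. The NKT17 gate stood at 46.4, 44.8 and 19.7 CPM in C57BL/6, BM only and BM + Spl mice, and the regulatory T cell gate at 34.6 CPM in BM only and 11.5 CPM in BM + Spl mice. In cells with an interferon response signature the sum was 108, 299.6 and 54.5 CPM, and Klra9 went from 134 CPM in BM only to 4.50 CPM in BM + Spl mice. The NKT1 markers of that gate moved as well, at 1106, 2583 and 870.3 CPM, and the NKT2 markers stood at 884, 681 and 866 CPM, and their part in the difference was not tested.

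Klra2 (Ly49B), a receptor of myeloid cells, was read in the macrophage gate in 20.8% of 24 BM only cells (35.6 CPM, 15.4–70.1) and 15.0% of 20 BM + Spl cells (18.5 CPM, 5.05–47.4).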
